A study of Mus musculus with 32 samples.

Results

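DNA replication licensing was followed through 10 genes in sorted fetal mouse germ cells: Mcm2, Mcm3, Mcm4, Mcm5, Mcm6, Mcm7, Mcm10, Cdc6, Cdt1 and Gmnn. A probe was taken for a gene where the array's annotation gives it that single gene symbol, which left 1 probe for each of the 10 genes, of 35556 probes in all, 21789 of which name a single gene. Germ cells carrying EGFP were sorted at 17.5 dpc and their RNA was hybridized to 32 Affymetrix Mouse Gene 1.0 ST arrays in 11 groups of 3 arrays, except for the DEHP females with 2. The design asks whether an endocrine disruptor (ED) given to the pregnant dam changed transcription directly in the germ cells of her fetuses (G1R), and whether a change persisted in germ cells a generation later (G2R).

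The 23 G1R arrays held male (M) and female (F) germ cells of FVBxOG2 fetuses. Their G0 dams were dosed by mouth from 12.5 dpc with vehicle (Oil), 0.2 mg/kg/day of bisphenol A (BPA), 750 mg/kg/day of di-(2-ethylhexyl)phthalate (DEHP) or 100 mg/kg/day of vinclozolin (VZ). The 9 G2R arrays held male germ cells of OG2xFVB fetuses, which were not dosed themselves and whose fathers had been exposed in utero in the Oil, DEHP or VZ lines. All fetuses carried the OG2 transgene, an Oct4 promoter joined to GFP, and the sort rests on that promoter. Its own gene, Pou5f1 (Oct4), averaged 7.65 in oil females and 10.83 in oil males on the log2 scale. The summed signal of 6 germ cell markers lay between 14.29 and 14.53 (log2) on every array. Of 8 fetal oocyte markers, 7 were higher in oil females (Nlrp5 by 4.73, Lhx8 by 4.01 and Nobox by 3.59, log2), and the meiotic entry gene Stra8 was lower there (5.20 against 5.58). Of 6 prospermatogonia markers, Dnmt3l, Piwil4 and Piwil2 were lower in oil females, by -5.72, -3.71 and -0.30. The direction of the others, Nanos2, Nanos3 and Tex101, is not given here. All 6 summed to 12.15 to 12.22 in oil females and 13.37 to 13.61 in oil males (log2). The labels do not say whether the arrays of a group came from separate litters or pools, so the p-values measure the spread between these arrays, and the small number of arrays limits the precision. In sorted but bulk RNA, fewer cells of a type and less RNA per cell cannot be told apart.

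Licensing makes each origin of replication competent to fire, and to fire no more than a single time per cell cycle. The origin recognition complex recruits the loader CDC6 and its partner CDT1, which together place the MCM helicase ring, built from the products of Mcm2, Mcm3, Mcm4, Mcm5, Mcm6 and Mcm7, on DNA; MCM10 then helps the loaded helicase to start, and geminin, the product of Gmnn, holds CDT1 back once S phase has begun. At this stage of gestation female germ cells are oocytes in meiotic prophase, after their last S phase, whereas male germ cells are prospermatogonia resting out of the cell cycle.

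In GRCm38.p6 (RefSeq) the ring subunits lie at chr6:88883474-88898780 (Mcm2), chr1:20802966-20820312 (Mcm3), chr16:15623897-15637400 (Mcm4), chr8:75109468-75128439 (Mcm5), chr1:128331575-128359705 (Mcm6) and chr5:138164583-138172111 (Mcm7). Mcm10 lies at chr2:4990724-5012791, Cdc6 at chr11:98907709-98923942, Cdt1 at chr8:122568015-122573130 and Gmnn at chr13:24751845-24761937, so no 2 of the genes are neighbours. Many licensing genes are known targets of E2F factors, so the promoters of the 10 genes are shown by their E2F-type letters. RefSeq promoter windows of 300 bases (build GRCm38.p6, 250 bases before to 50 bases after a start) were at hand for 8 of the genes, with 2 windows for Mcm7; Mcm4 and Gmnn have no entry in the table used here. The letters TTTCCCGC, TTTGGCGC, TTTCGCGC or TTTGCCGC, on either strand, occurred in 2.26% of all 32851 windows, and in windows of 6 of the 8 genes: Mcm3, Mcm5, Mcm6, Mcm7, Cdc6 and Cdt1, but not in those of Mcm2 and Mcm10. The Mcm6 and Mcm5 windows are printed as a pair because the results below separate them, with Mcm6 moving with generation and Mcm5 with sex. Each is given 5′ to 3′ on the gene's strand, with the E2F-type letters in capitals. In Mcm6 the stretch is bases -200 to -1 from the start (chr1:128359706-128359905, minus strand), and in Mcm5 bases -200 to -51 (chr8:75109309-75109458, plus strand).
Mcm6: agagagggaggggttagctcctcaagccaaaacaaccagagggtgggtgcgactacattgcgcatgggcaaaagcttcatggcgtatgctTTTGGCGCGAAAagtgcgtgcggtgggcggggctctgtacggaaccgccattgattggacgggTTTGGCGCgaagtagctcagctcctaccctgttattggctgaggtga
Mcm5: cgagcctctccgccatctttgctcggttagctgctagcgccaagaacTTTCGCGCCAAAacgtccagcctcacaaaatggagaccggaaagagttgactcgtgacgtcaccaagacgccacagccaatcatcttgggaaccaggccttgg

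Both stretches hold a run of 12 capitals in which 2 of the searched octamers overlap on opposite strands, from -110 in Mcm6 and from -153 in Mcm5, and Mcm6 has a further octamer at -47. For the other genes 30 bases around a match are given: Mcm7 at -165 (chr5:138172030-138172059, minus strand), Cdc6 at -138 (chr11:98908002-98908031, plus strand), Cdt1 at 33 (chr8:122568035-122568064, plus strand) and Mcm3 at 20 (chr1:20820275-20820304, minus strand).
Mcm7: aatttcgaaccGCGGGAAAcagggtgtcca
Cdc6: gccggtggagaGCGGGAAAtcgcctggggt
Cdt1: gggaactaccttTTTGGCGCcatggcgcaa
Mcm3: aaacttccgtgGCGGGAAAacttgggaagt

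Mcm7 and Mcm3 each hold a further octamer after the start, at 17 and at 39. Positions count from the start used for each window. By that start the printed Mcm7 and Cdc6 matches are upstream, yet both lie within the gene spans given above. The CCAAT box, the letters CCAAT on either strand, occurred in 37.4% of all windows and in those of Mcm2, Mcm3, Mcm5, Mcm6, Mcm7 and Mcm10, with none in Cdc6 and Cdt1; in Mcm7 the box at 24 shares a base with the octamer at 17. These matches describe letters in a window and show neither binding nor its absence. Genes with the same letters went in opposite directions below, Mcm5 and Cdc6 being higher in females and Mcm7 and Cdt1 lower.

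Females and males differed in 6 of the 10 genes after oil, against 54.3% of all probes that passed the same test (limma, adjusted p under 0.05). The 6 did not move as a block. Gmnn (geminin), the loader Cdc6, Mcm10 and the helicase subunit Mcm5 were higher in female germ cells, whereas the subunit Mcm7 and the loading factor Cdt1 were lower. The median difference of the 10 genes was 0.05 and that of all probes was also 0.05 (log2), and the differences of the 10 ran from -1.78 in Mcm7 to 1.82 in Gmnn.

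Gmnn, the inhibitor of CDT1, measured 7.79, 7.38 and 7.40 in the oil females and 5.65, 5.65 and 5.81 in the oil males (log2 signal). Every oil female array lay above every oil male array, as for 31.4% of all probes, while 28.4% lay wholly below. The difference was 1.82 ± 0.12 (SE), 3.53-fold, with an adjusted p of 7.82e-13. In males the probe lay below 6.7, the level under which a probe is called dim here, and all male group means of Gmnn, in both generations, lay between 5.70 and 5.94.

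Mcm7, a subunit of the catalytic part of the helicase ring, went the other way. Its signals were 8.52, 8.17 and 8.41 in the oil females and 10.11, 10.28 and 10.05 in the oil males, and the groups were far apart. The difference was -1.78 ± 0.13, 3.44-fold lower in females, with an adjusted p of 5.64e-12. In size, 95.6% of all probes had a smaller sex difference after oil than Mcm7, and 95.8% had a smaller one than Gmnn.

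Mcm5 signals were 10.44, 10.40 and 10.53 in the oil females and 9.53, 9.86 and 9.55 in the oil males, higher in every female. Its difference was 0.81 ± 0.13 (1.76-fold, adjusted p 4.47e-06). Mcm10, which is not a ring subunit, measured 8.80, 8.69 and 8.76 in females and 7.83, 8.08 and 7.84 in males, again with no overlap, a difference of 0.83 ± 0.10 (1.78-fold, adjusted p 1.21e-07).

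The loading factors parted from each other. Cdc6 measured 7.52, 7.37 and 7.55 in the oil females and 7.03, 6.47 and 6.40 in the oil males, of which replicate 1 stood closest to the females. The difference was 0.85 ± 0.16 (1.80-fold, adjusted p 6.36e-05). Cdt1, in contrast, measured 8.56, 8.63 and 8.64 in females and 8.99, 9.16 and 9.02 in males. All 3 females lay below all 3 males, with a difference of -0.45 ± 0.09 (1.36-fold lower, adjusted p 0.000211).

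The 4 remaining ring subunits did not pass the test after oil, and their groups overlapped. The difference was 0.03 in Mcm2 (95% CI -0.18 to 0.24), 0.07 in Mcm3 (-0.14 to 0.27), -0.01 in Mcm4 (-0.16 to 0.13) and -0.09 in Mcm6 (-0.37 to 0.19). These intervals exclude differences of the size seen in Mcm5 and Mcm7 within the same ring. These 4 small values depend on how the arrays are scaled. The median of all probes, female minus male, was 0.05 in the deposited values, 0.20 after centring each array on its median and about 0 (-0.00442) after cyclic loess. Relative to that median, the oil differences of Mcm2, Mcm3, Mcm4 and Mcm6 were -0.02, 0.02, -0.06 and -0.14 as deposited and after centring, and -0.21, -0.18, -0.26 and -0.31 after cyclic loess, where Mcm4 and Mcm6 passed the test as lower in females. The relative differences of Gmnn (1.77 to 1.85) and Mcm7 (-1.83 to -2.02) kept their sign, and both genes passed under each scaling. Centring shifts all probes of an array alike, so only cyclic loess could change these relative values.

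**Figure D1:**
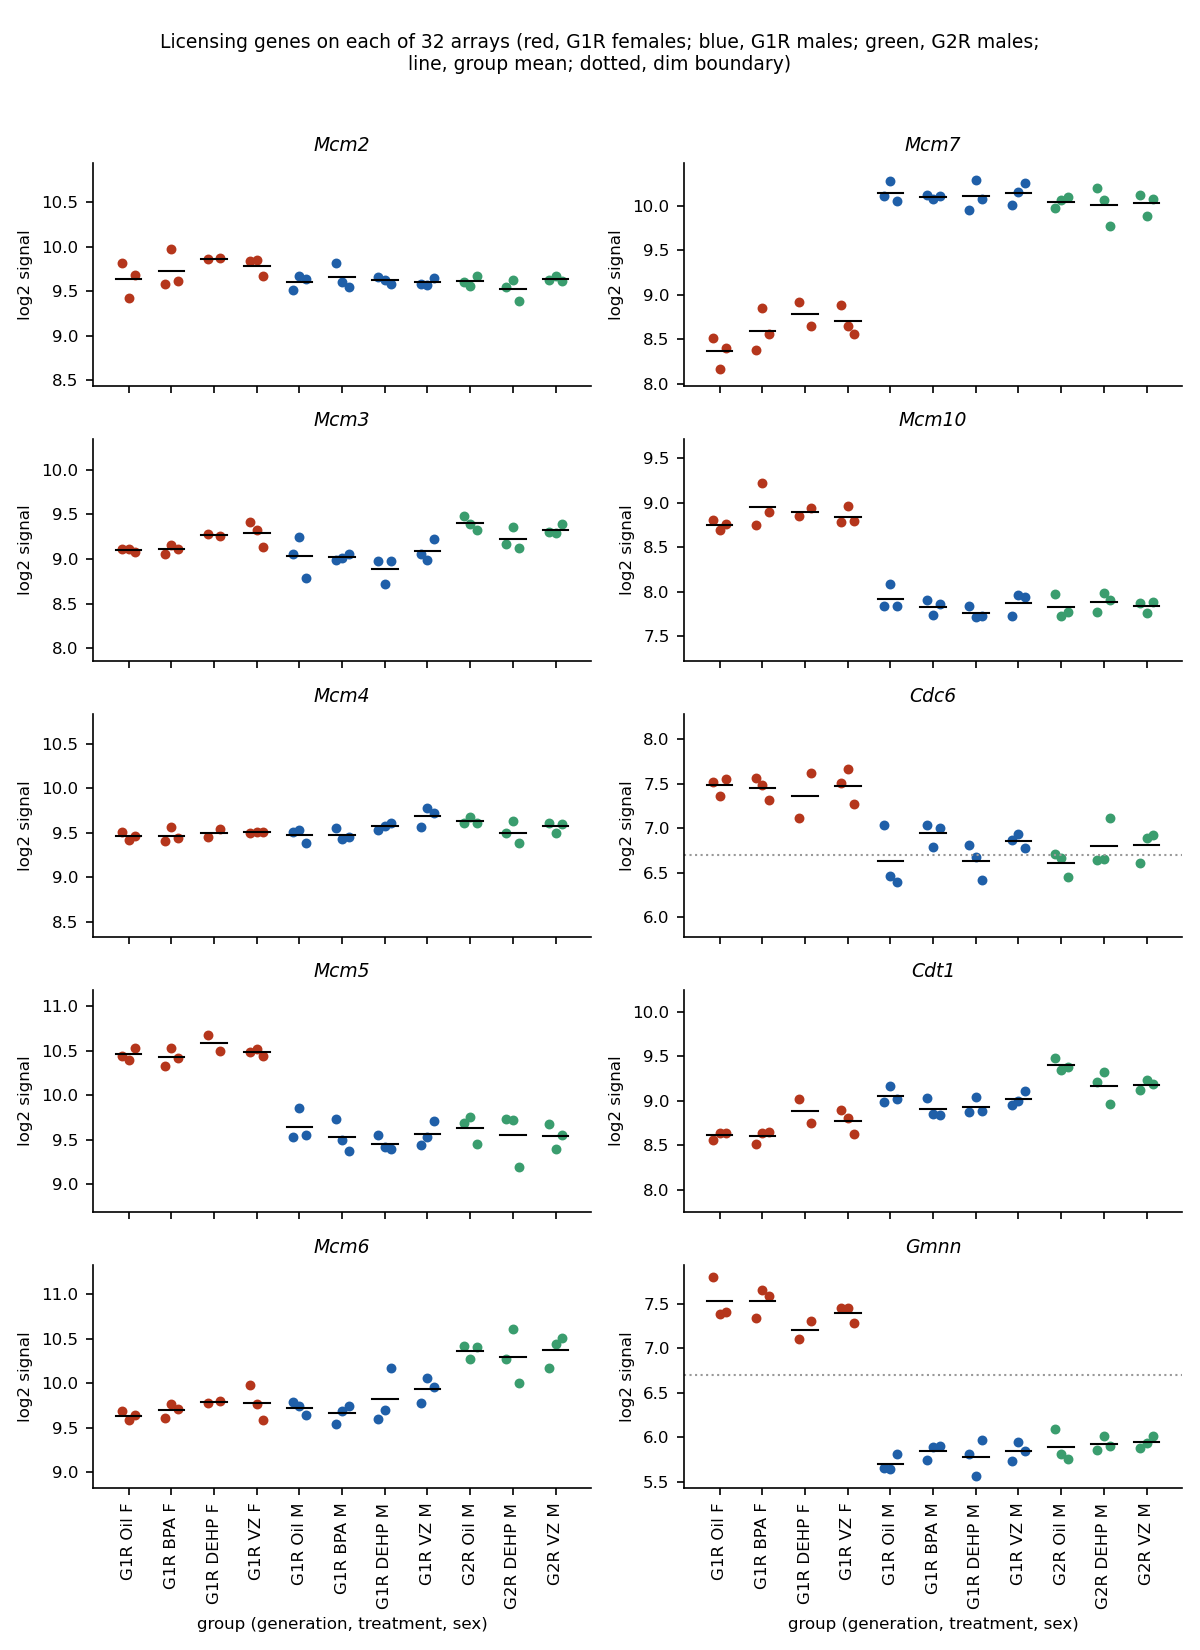
Log2 signal of the 10 licensing genes (y axis, 2.5 log2 units in every panel) on each array, by group (x axis); points are arrays, lines group means, and the dotted line the dim boundary of 6.7. Females (red) lie above all males in Gmnn, Mcm5 and Mcm10 and below them in Mcm7, and G2R males (green) are the highest group in Mcm6 and Cdt1.

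The pattern was found again in each treated group. After BPA 6 of the 10 genes passed the test, the same 6 with the same signs as after oil (55.8% of all probes), after DEHP 6 (52.1%) and after VZ 7 (55.4%). Gmnn was higher in females by 1.68, 1.43 and 1.55, Mcm10 by 1.12, 1.14 and 0.97, Mcm5 by 0.89, 1.13 and 0.92 and Cdc6 by 0.51, 0.73 and 0.62 (BPA, DEHP and VZ in turn, log2). Mcm7 was lower by -1.50, -1.32 and -1.44.

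The Cdt1 call was not steady across treatments or scalings. Cdt1 was lower in females after BPA (-0.31, adjusted p 0.00654) and VZ (-0.25, adjusted p 0.0269), but after DEHP the females measured 9.02 and 8.75 and the males 8.87, 9.04 and 8.89, groups that overlapped, with a difference of -0.05 (95% CI -0.26 to 0.17). Median centring ended both calls (-0.15 after BPA, adjusted p 0.177; -0.10 after VZ, adjusted p 0.358), whereas cyclic loess made the DEHP difference a call (-0.29, adjusted p 0.013). The VZ call of Cdt1 was also lost without female replicate 3 or without male replicate 3. After DEHP Mcm3 passed (0.38, adjusted p 0.00572), as did Mcm4 after VZ in the lower direction (-0.18, adjusted p 0.0331); the Mcm4 call was lost without any of 5 of the 6 arrays compared, all but male replicate 1, and after median centring (-0.04), and the Mcm3 call after cyclic loess (0.13, adjusted p 0.314). The Cdc6 call after DEHP rests on 2 females that lie apart, at 7.12 and 7.62, and leaving 1 of them out keeps a single female array. In G1R BPA M, replicates 1 and 2 had summed fetal Leydig marker signals of 11.54 and 12.20 (log2). Without these arrays replicate 3 (9.40) would be the only BPA male, so no BPA calls are given for that fit.

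**Figure D2:**
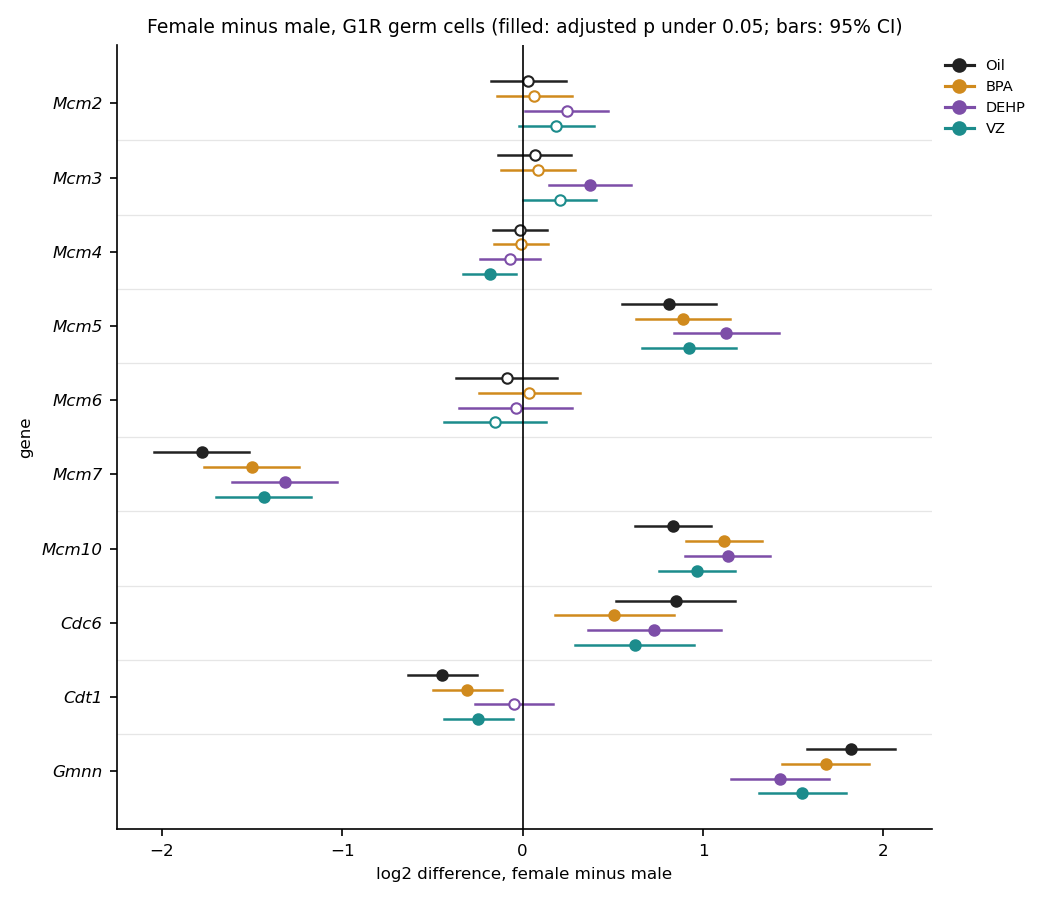
Log2 difference, female minus male (x axis), of each licensing gene (y axis) in the 4 G1R treatments; points are estimates, bars 95% CI, and filled points passed the test. Gmnn, Mcm5, Mcm10 and Cdc6 lie to the right of 0 and Mcm7 to the left in all 4 treatments, while Mcm2 and Mcm6 passed in none, Mcm3 only after DEHP (0.38) and Mcm4 only after VZ (-0.18).

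Averaged over the 4 treatments, 8 of the 10 genes passed (75.4% of all probes). Gmnn differed by 1.62, Mcm10 by 1.01, Mcm5 by 0.94, Cdc6 by 0.68, Mcm3 by 0.18, Mcm2 by 0.13, Cdt1 by -0.26 and Mcm7 by -1.51. Mcm4 (-0.07, 95% CI -0.15 to 0.01) and Mcm6 (-0.06, -0.21 to 0.08) did not pass. After cyclic loess both passed as lower in females (Mcm4 -0.32, adjusted p 2.58e-09; Mcm6 -0.28, adjusted p 0.000695). The calls of Mcm10, Mcm5, Cdc6 and Mcm7 were kept with the same sign under every alternative run. That of Gmnn was kept under every alternative but the filter on dim probes, which drops its probe and so could not test it. The 2 smallest upward calls were not kept: Mcm2 and Mcm3 turned to -0.106 and -0.0727 after cyclic loess. Mcm2 also lost its call without oil female replicate 1 or without BPA female replicate 2, and Cdt1 lost its call after centring (-0.11, adjusted p 0.0512).

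All 11 female arrays can be set beside all 21 male arrays of both generations. Gmnn ranged from 7.11 to 7.79 (median 7.40) in females and from 5.57 to 6.09 (median 5.85) in males. Mcm7 ranged from 8.17 to 8.93 (median 8.56) in females and from 9.77 to 10.29 (median 10.08) in males. Mcm5, Mcm10 and Gmnn were higher on every female array than on any male array, and Mcm7 was lower. Without overlap in the higher direction were 16.7% of all probes, and 15.5% in the lower. Cdc6 just failed this, with a lowest female of 7.12 in the DEHP group and a highest male of 7.12 in the G2R DEHP group. Cdt1 overlapped through the DEHP and VZ females.

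The non-germ-cell markers were also unequal between the sexes. The summed signal of 5 endothelial markers was 8.67 to 8.91 in oil females and 10.40 to 10.50 in oil males, that of 7 Sertoli markers 9.59 to 9.80 and 10.51 to 10.81, that of 7 peritubular and interstitial markers 10.07 to 10.19 and 10.60 to 11.10, that of 5 fetal Leydig markers 8.70 to 8.89 and 9.46 to 10.22, that of 7 granulosa markers 10.05 to 10.24 and 10.90 to 10.93, and that of 4 blood cell markers 8.27 to 8.29 and 8.68 to 8.84. All 6 lists were thus higher in males, in the direction of Mcm7 and Cdt1 and against that of Gmnn, Mcm5, Mcm10 and Cdc6. Granulosa cells belong to the ovary, so the granulosa sums of males, here and below, do not read those cells. A sum is therefore not taken as an amount of the cell type it is named for. Of the endothelial markers 4 of 5 had a mean below the dim boundary in oil females, and 1 of 5 in oil males. Their part in the result was not tested.

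The other genes of the replication machinery were called more often higher than lower in females. The lists covered origin recognition, MCM relatives, geminin relatives, control of CDT1 and geminin, origin firing, forks, deoxynucleotide supply, E2F factors and cycling cells. Of their 88 genes 86 had a probe. In oil females 51 were higher and 17 lower, with a median of 0.50 against 0.05 for all probes, of which 28.7% were higher and 25.6% lower.

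The origin recognition complex, which marks the origins for loading, was higher in females in 5 of its 6 subunits, led by Orc5 (2.29), Orc3 (1.95) and Orc2 (1.45). All 4 MCM relatives and binding proteins were higher, led by Mcm8 (1.5), Mcmdc2 (1.43) and Mcm9 (0.81), of which Mcm8, Mcm9 and Mcmdc2 are known for roles in recombination. The relatives of geminin, Gmnc (-0.53) and Mcidas (-0.36), were lower, opposite to Gmnn. Both are known from multiciliated cells.

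Among 7 genes that control CDT1 and geminin, Dtl (1.13) and Cul4a (0.98) were higher, and Skp2 (-0.40), Kat7 (-0.33) and Cul4b (-0.32) were lower. Of 12 origin firing and helicase genes 8 were higher, led by Topbp1 (1.78), Ticrr (1.41) and Gins1 (1.09). Cdc45, which joins the MCM ring in the active helicase, was lower (-0.32).

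Of 27 fork genes 16 were higher and 6 lower. Pold2 (1.94), Tipin (1.73) and Rfc2 (1.60) led the first and Rpa1 (-0.71), Pole (-0.67) and Pole2 (-0.64), the latter pair subunits of the leading strand polymerase, the second. Of 5 deoxynucleotide supply genes Rrm2 (1.89) and Tyms (0.97) were higher and Tk1 (-0.35) lower. Of 12 E2F and pocket protein genes 6 were higher, led by E2f5 (2.93), E2f4 (1.75) and E2f8 (1.57), and E2f6 (-0.99) and E2f7 (-0.91) were lower. Of 11 genes of cycling cells 8 were higher, led by Cdk1 (2.69), Ccnb2 (2.03) and Plk1 (1.67), genes of the G2 to M transition that also act in meiosis, and Top2a (-0.71) and Aurkb (-0.60) were lower.

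**Figure D3:**
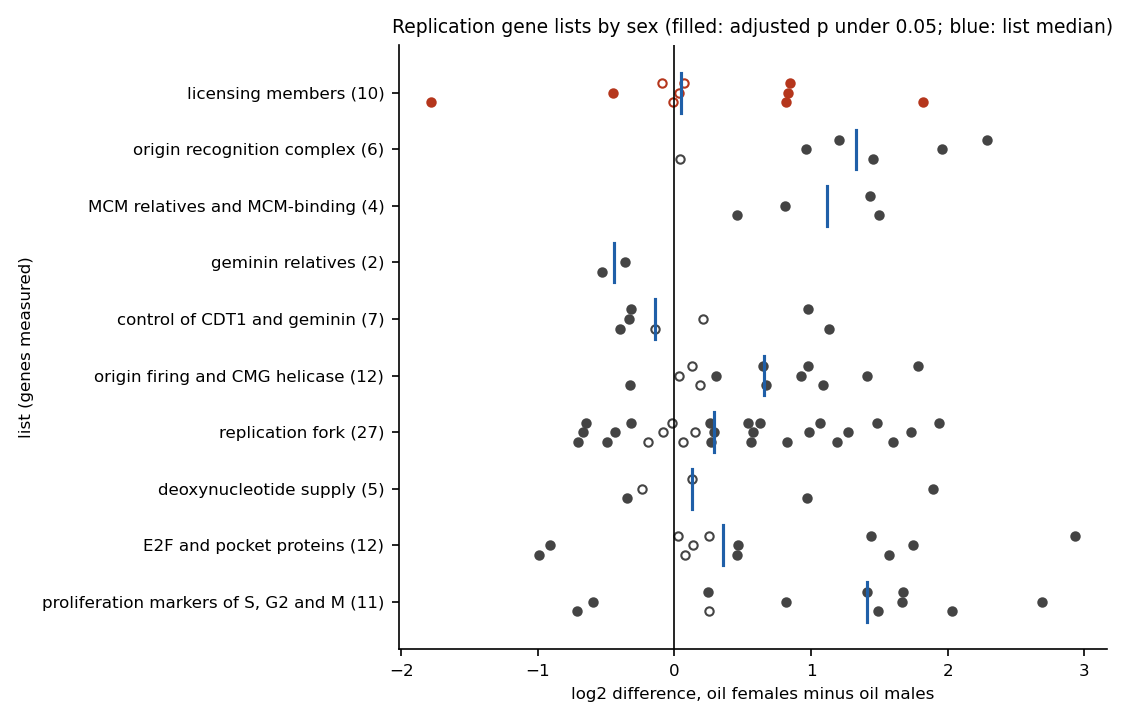
Log2 difference between oil females and oil males (x axis) for the licensing genes (red) and the other replication lists (grey, number of genes measured in parentheses); filled points passed the test, and blue lines are list medians. The licensing genes spread from -1.78 to 1.82 about a median of 0.05, whereas the median of the origin recognition complex is 1.33 and that of the cycling cell genes 1.41.

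G2R males differed from G1R males in 3 licensing genes after oil, all higher in G2R: the ring subunits Mcm6 and Mcm3 and the loading factor Cdt1 (5% of all probes were higher and 5.30% lower). Mcm6 was higher in all 3 lines, and it had not passed the test of sex in any treatment. G1R and G2R arrays were run at different times according to the study and came from reciprocal crosses, so generation, array run and direction of cross cannot be told apart.

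Mcm6 measured 10.41, 10.27 and 10.41 in the G2R oil males and 9.79, 9.75 and 9.65 in the G1R oil males. The groups did not overlap, as for 14.3% of all probes with G2R higher in the oil line. The difference was 0.64 ± 0.14 (1.56-fold, adjusted p 0.00573). In the DEHP line it measured 10.27, 10.60 and 10.01 in G2R and 9.59, 9.71 and 10.17 in G1R, where G1R replicate 3 lay above the lowest G2R array, and the difference was 0.47 (adjusted p 0.0215).

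In the VZ line Mcm6 measured 10.17, 10.44 and 10.51 in G2R and 9.78, 10.06 and 9.96 in G1R. These groups did not overlap, as for 12.4% of all probes with G2R higher, and the difference was 0.44 (adjusted p 0.0479). Mcm3 measured 9.48, 9.39 and 9.33 in G2R oil males against 9.06, 9.25 and 8.79 in G1R oil males. It was higher on every G2R array, by 0.37 (adjusted p 0.0199), and in the DEHP line by 0.33 (adjusted p 0.0262), but its difference in the VZ line (0.24, 95% CI 0.04 to 0.44) missed the adjusted threshold.

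Cdt1 measured 9.48, 9.35 and 9.38 in G2R oil males against 8.99, 9.16 and 9.02 in G1R oil males, again without overlap (14.3% of all probes). The difference was 0.35 (adjusted p 0.0201), and in the DEHP and VZ lines it was 0.23 (95% CI 0.04 to 0.42) and 0.16 (-0.03 to 0.35), which did not pass. In the DEHP line 2 licensing genes were thus called (6.91% of all probes higher, 7.56% lower), and in the VZ line 1 (2.98% higher, 4.78% lower). Whether the lines differ from each other was tested directly as the generation by treatment term, and no licensing gene passed for DEHP or VZ, against 0% of all probes in both.

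Averaged over the 3 lines, Mcm6 was higher in G2R by 0.52 (95% CI 0.35 to 0.68, adjusted p 2.70e-05), Mcm3 by 0.31 (0.20 to 0.43, adjusted p 0.00019) and Cdt1 by 0.25 (0.13 to 0.36, adjusted p 0.00116), while 14.6% of all probes were higher and 16.2% lower. These 3 calls were kept under all the alternatives run, with the Mcm6 difference between 0.46 and 0.57. No other licensing gene passed. Gmnn differed by 0.14 (-0.00 to 0.28) and Mcm7 by -0.10 (-0.25 to 0.05), and the differences of Mcm2, Mcm4, Mcm5, Mcm10 and Cdc6 lay between -0.02 and 0.03. Over all 9 G2R arrays Mcm6 ranged from 10.01 to 10.60 (median 10.41) and over all 12 G1R male arrays from 9.55 to 10.17 (median 9.75).

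Calls within a single line rested on few arrays. In the oil line 1 gene, Mcm6, was left without G1R replicate 1, G1R replicate 3 or G2R replicate 1, and Mcm3 alone was lost without G2R replicate 2. In the DEHP line 1 gene was left without G1R replicate 1 and 0 without G1R replicate 2, G2R replicate 1 or G2R replicate 2, the last of which had a fetal Leydig marker sum of 12.30. The VZ call of Mcm6 was lost without any G1R VZ array and without G2R VZ replicate 2 or 3. Over the alternatives the adjusted p of Mcm6 lay between 0.00136 and 0.0302 in the oil line, between 0.00308 and 0.21 in the DEHP line and between 0.0255 and 0.183 in the VZ line.

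**Figure D4:**
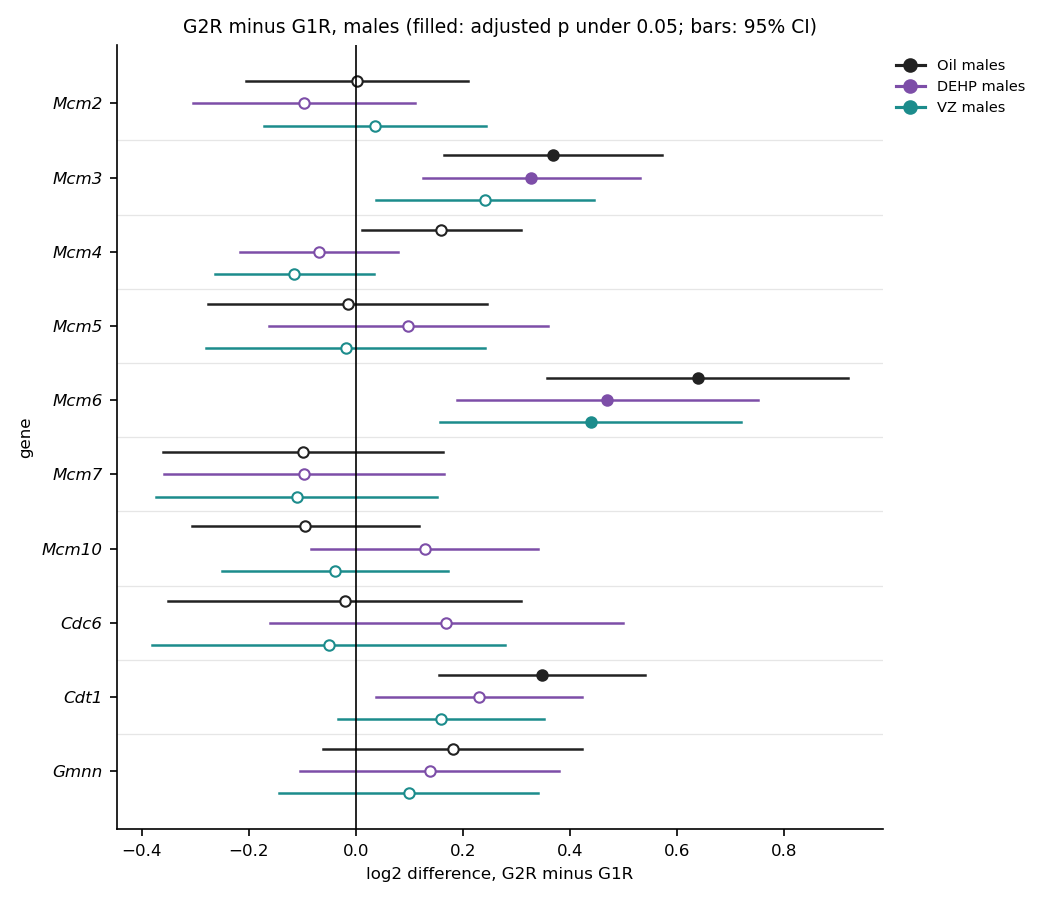
Log2 difference, G2R minus G1R males (x axis), of each licensing gene (y axis) in the Oil, DEHP and VZ lines; points are estimates, bars 95% CI, and filled points passed the test. Mcm6 lies at 0.64, 0.47 and 0.44 and passed in all 3 lines, Mcm3 passed in the Oil and DEHP lines and Cdt1 in the Oil line.

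Of the 86 other replication genes 20 were higher and 11 lower in G2R averaged over the lines, with a median of 0.04 against -0.02 for all probes. Orc2 (0.21) was the single origin recognition gene called, and Mcm9 (0.22) the single MCM relative; neither of the geminin relatives was called. Dtl (0.22) and Skp2 (0.20) were higher and Cul4b (-0.16) lower. Both subunits of the kinase that fires licensed origins by phosphorylating MCM proteins, Cdc7 (0.47) and Dbf4 (0.31), were higher, with Mtbp (0.27), while Ticrr was lower (-0.18).

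At the fork Timeless (0.41), Fen1 (0.38) and Pold1 (0.36) were higher and Rpa3 (-0.59), Prim2 (-0.32) and the sliding clamp Pcna (-0.28) lower. Rrm1 was higher (0.24) and Tk1 (-0.32) and Dut (-0.23) lower. Rbl1, a pocket protein, was higher (0.24), and E2f3 (-0.52), Tfdp1 (-0.20) and Rb1 (-0.17) were lower. Of the genes of cycling cells Bub1 (0.56), Cenpe (0.40) and Top2a (0.27) were among the 4 higher, and Ccnb2 was lower (-0.19). Beside these values, the summed granulosa markers were 10.52 to 10.75 in G2R and 10.83 to 10.97 in G1R males, and 3 of 7 Sertoli, 5 of 7 granulosa and 2 of 5 endothelial markers were lower in G2R and none higher. Their part in the result was not tested.

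Against oil, no ED moved a licensing gene past the threshold in 8 comparisons. Of all probes, 0.00562% passed in DEHP males and in VZ males and 0% in the other 6 comparisons. The 10 genes are therefore described by their intervals and by the values nearest to a call, and an interval that includes 0 does not show that a treatment had no effect. The treated groups of a sex and generation share their oil arrays, so their differences from oil are not independent of each other.

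In females the differences from oil lay between -0.03 and 0.23 after BPA, between -0.32 and 0.42 after DEHP and between -0.13 and 0.34 after VZ. At an unadjusted p under 0.05, which 6.28% of all probes met, DEHP females had 3 genes: Mcm7 at 8.93 and 8.65 against 8.52, 8.17 and 8.41 in oil (0.42, 95% CI 0.13 to 0.71, adjusted p 0.743), Cdt1 (0.28, 0.06 to 0.49, adjusted p 0.746) and Gmnn (-0.32, -0.59 to -0.05, adjusted p 0.76). The 2 DEHP females lay outside the range of the 3 oil females in all 3 genes, as did 22.3% of all probes. They also did so in Mcm2, Mcm3, Mcm6 and Mcm10. Mcm7, Cdt1 and Gmnn stood on the male side of the oil females. Mcm10 went the other way, averaging 8.90 in DEHP females, 8.75 in oil females and 7.92 in oil males. So did Mcm5, with overlap, at 10.58, 10.46 and 9.64. VZ females had Mcm7 (0.34, 0.07 to 0.60, adjusted p 0.76; 5.96% of all probes at that p), and BPA females had none (4.56%). The sex by treatment term, which asks whether an ED acts differently in females and males, was 0.46 for Mcm7, 0.40 for Cdt1 and -0.39 for Gmnn after DEHP, and no licensing gene passed it after BPA, DEHP or VZ (smallest adjusted p 0.534), against 0% of all probes.

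In G1R males the differences lay between -0.15 and 0.31 after BPA, between -0.19 and 0.10 after DEHP and between -0.08 and 0.23 after VZ. At an unadjusted p under 0.05 there was Mcm4 after VZ, which measured 9.56, 9.78 and 9.72 against 9.51, 9.53 and 9.38 in oil. Each VZ array lay above each oil array, as for 12.7% of all probes, and the difference was 0.21 (95% CI 0.06 to 0.36, adjusted p 0.133), where 18.3% of all probes had an unadjusted p of that size. BPA and DEHP males had no such gene (6.96% and 14.4% of all probes). The highest BPA value was that of Cdc6 (0.31, 95% CI -0.02 to 0.64). Replicates 1 and 2 of that group stood high in fetal Leydig markers. The group's highest sum also exceeded that of oil males in Sertoli markers (11.82 against 10.81) and in peritubular and interstitial markers (12.47 against 11.10). In granulosa markers it did not (10.91 against 10.93). A link of any of these sums to Cdc6 was not tested.

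In G2R males the differences lay between -0.24 and 0.19 in the DEHP line and between -0.22 and 0.20 in the VZ line. Cdt1 was the single gene at an unadjusted p under 0.05 in each (6.91% and 5.41% of all probes), at 9.21, 9.32 and 8.96 in the DEHP line and 9.12, 9.24 and 9.18 in the VZ line against 9.48, 9.35 and 9.38 in the shared oil arrays. All treated arrays lay below all oil arrays, as for 4.67% of all probes in the DEHP line and 5.33% in the VZ line. The differences were -0.24 (95% CI -0.43 to -0.05, adjusted p 0.669) and -0.22 (-0.42 to -0.03, adjusted p 0.913). The widest intervals in all 8 comparisons, those of Cdc6, reached 0.33 to 0.37 on each side of the estimate. These intervals are not adjusted for the number of probes, so they set no limit of detection for the adjusted test. Larger differences can also miss it, as did the 0.42 of Mcm7 in DEHP females.

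**Figure D5:**
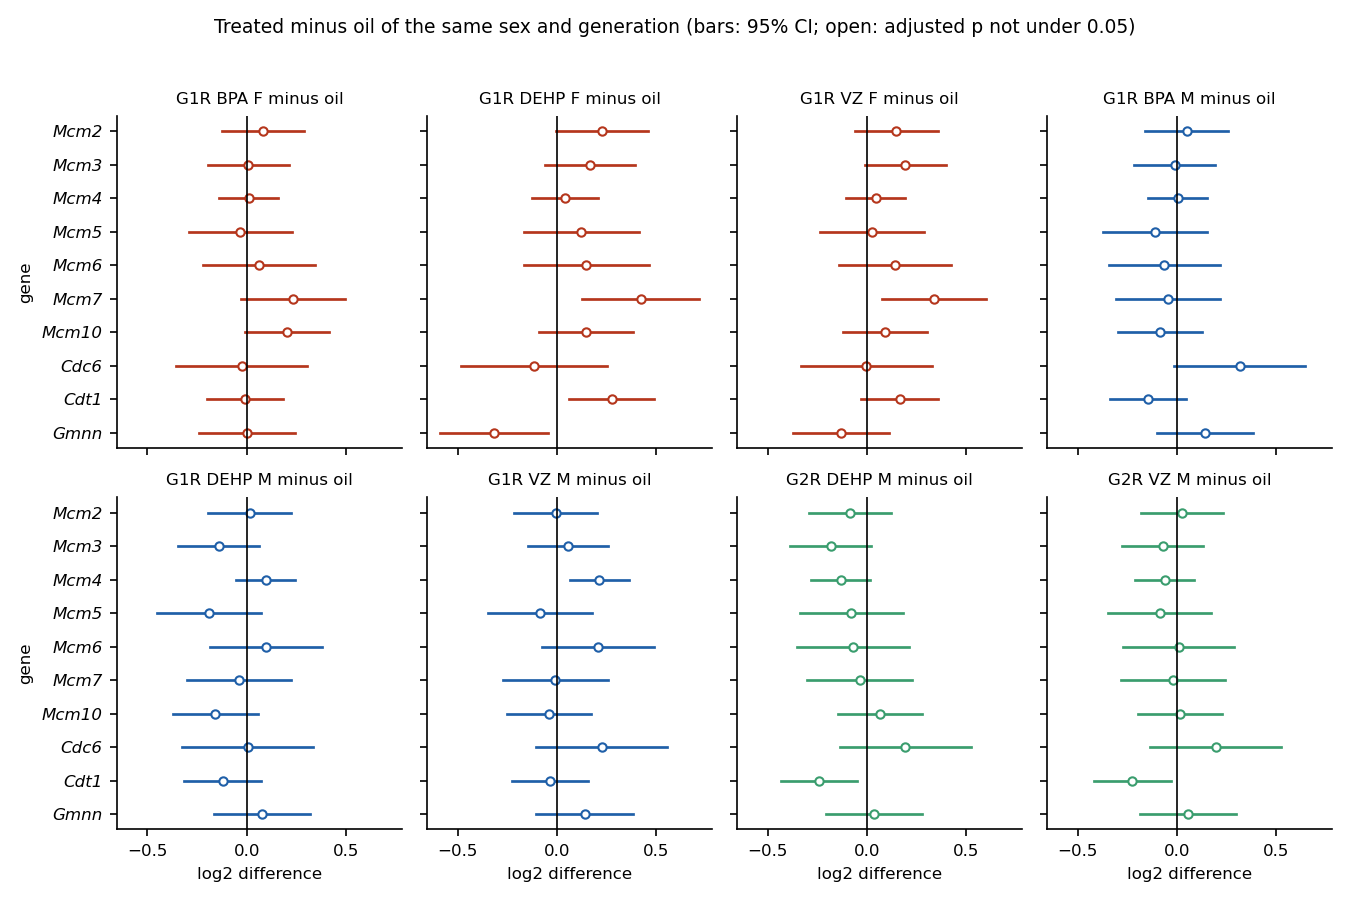
Log2 difference from oil (x axis) of each licensing gene (y axis) in the 8 treated groups; points are estimates, bars 95% CI, and open points did not pass the test. No point is filled, and the estimates run from -0.32 (Gmnn, DEHP females) to 0.42 (Mcm7, DEHP females).

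Over the 11 group means the licensing genes fell along sex and along generation. Gmnn and Mcm7 mirrored each other (Pearson r -0.996 over 11 groups), Mcm5 and Mcm10 ran together (r 0.990), and Mcm6 ran with Cdt1 (r 0.837). These values describe 11 points drawn from 32 arrays, which split by sex and by generation, and any genes that differ by sex correlate over them. The profiles most like that of Gmnn, by the root mean square distance between centred group means, were Zfyve9 (0.06), Erlec1 (0.08) and Tbc1d12 (0.08). Near Mcm5 were Ttll12, Smox and Nelfe (0.05 to 0.06), near Cdt1 were Ralgds, Pla2g4e and Dcaf15 (0.06 each), and near Mcm4 were Ddx4, the germ cell marker, at 0.03, and Zbtb2 and Glo1 at 0.04.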

How the data were processed

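The authors hybridized biotin-labelled RNA to the arrays and normalized them by robust multichip averaging (RMA) in Partek, and the deposited values are log2 signals. Which arrays were normalized together is not given in the sources used here. Each column was assigned to its group by its sample title, and no array was left out. The limma package (3.58.1, R 4.3.3; lmFit, eBayes; two-sided) modelled each of the 35556 probes by its 11 group means with a shared variance. Benjamini-Hochberg adjustment ran over the whole table, and an adjusted p under 0.05 was called. The script was tested on simulated data. Every licensing gene was named in each comparison, and other replication genes by the up to 3 highest and 3 lowest differences among those called, each by its brightest probe naming a single gene. The genes and lists were chosen with earlier results of these data known. The alternatives were no variance moderation, the compared arrays only, probes above 6.7, single-gene probes, cyclic loess, median centring, array quality weights, a replicate block and leaving out each array. Promoters and figures were made with Python 3.11.15, pandas 2.3.3 and matplotlib 3.10.9.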

Additional observations from a re-analysis of the deposited data

How the results depend on the processing

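The 22 comparisons were repeated under the alternatives. Counts of licensing genes called moved by over 1.5 times in 4 of them. In VZ males against oil, array quality weights gave 1 (Mcm4). In G2R against G1R males, the compared arrays alone gave 1 in the oil line, 0 in the DEHP line and 0 in the VZ line; array quality weights gave 1 in the DEHP line; no variance moderation gave 0 in the VZ line. Leaving out each array gave 1 to 3 in the oil line, 0 to 3 in the DEHP line and 0 to 1 in the VZ line, and leaving out the arrays with a Leydig marker sum over 11, chosen after the data had been seen, gave 0 in the DEHP line. Averaged over treatments, the sex difference reversed in Mcm2 (-0.106, adjusted p 0.0447) and Mcm3 (-0.0727, adjusted p 0.161) after cyclic loess and in Mcm4 (0.0858, adjusted p 0.0491) after median centring. The replicate block gave 0 in the VZ line and changed no other count by over 1.5 times; the numbers do not pair the arrays, since 4 of 43 same-numbered pairs deviated together (correlation over 0.1) and 6 of 32 arrays were closest to an array of their own number. For all these moves the cause was not tested. Gmnn is dropped by the filter on dim probes.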

Other observations

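An intron of Mcm7 hosts the miRNA genes Mir106b, Mir93 and Mir25, and each has a probe that names it alone. They were looked at after the Mcm7 values had been seen. Their mature products, from RefSeq (GRCm38.p6, minus strand, at chr5:138165787-138165807, chr5:138165574-138165596 and chr5:138165332-138165353), are shown with the seed, bases 2 to 8, in capitals, because the first pair share a seed and the last does not.
mmu-miR-106b-5p: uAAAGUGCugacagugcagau
mmu-miR-93-5p: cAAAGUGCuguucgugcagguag
mmu-miR-25-3p: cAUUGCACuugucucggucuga

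In oil, Mir93 was lower in females by -0.23 (adjusted p 0.0369), without overlap, as for 28.4% of all probes. Mir106b (-0.16) and Mir25 (-0.10) did not pass. No hosted probe passed after BPA, DEHP or VZ, where Mir93 differed by -0.12, 0.13 and 0.18. Female minus male, averaged over the 4 treatments, Mcm7 differed by -1.51, and Mir106b by -0.09 (95% CI -0.26 to 0.09), Mir93 by -0.01 (-0.11 to 0.09) and Mir25 by -0.00 (-0.12 to 0.12), beside a median of 0.09 for all probes. G2R minus G1R, averaged over the 3 male lines, Mir106b was lower by -0.43 (6.43 against 6.86, adjusted p 0.00114) and Mir93 by -0.18 (6.99 against 7.17, adjusted p 0.0112), where Mcm7 (-0.10) and Mir25 (0.07) did not pass, and 16.2% of all probes were lower. By line (Oil, DEHP and VZ in turn), Mir106b differed by -0.62, -0.38 and -0.30 and Mir93 by -0.44, -0.01 and -0.09. Both passed in the oil line (adjusted p 0.0185 and 0.00468), where 5.30% of all probes were lower, and neither passed in the DEHP or VZ line. These probes read the miRNA gene from labelled total RNA and do not measure the mature miRNA; Mir106b lies close to the dim boundary of 6.7.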
